A study of Mus musculus with 4 samples.

Results

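The genes described here are 7 markers of mammary luminal progenitors and innate defence, Kit, Rspo1, Aldh1a3, Plet1, Cd14, Lcn2 and Ltf, followed through the chromatin of fetal and adult mammary epithelium. They were chosen by name, without a threshold on any value, and are 7 of the 21887 genes counted. All 7 passed the filter on low reads in both tables tested, which left 18808 genes for the comparison of stages and 16033 for the comparison of cell classes. In the comparison of cell classes Ltf did so only through the adult sums. The question put to the data was which of the 7 loci were open in fetal classes 9 and 5, 2 groups of nuclei in which some luminal progenitor markers were open.

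The data are single-nucleus ATAC-seq, in which a transposase inserts sequencing adapters where chromatin is open and barcodes assign each read to a nucleus. Every sample was wild-type mammary gland of CD1 mice, an outbred laboratory strain. Sorting for EpCAM, an epithelial surface protein, and against lineage markers selected the epithelium. The fetal group was taken at embryonic day 18 (E18) and the adult group at 8 weeks of age, with 2 libraries labelled as biological replicates in each. The number of animals behind a library is not given in the sources used here.

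Kit encodes the receptor tyrosine kinase for stem cell factor, and its span lies at chr5:75574987-75656722 (plus strand). Rspo1 at chr4:124986401-125009102 (plus strand) encodes R-spondin 1, a secreted enhancer of Wnt signalling. Aldh1a3 lies at chr7:66390892-66427477 and Cd14, the co-receptor for bacterial lipopolysaccharide, at chr18:36725064-36726815. Lcn2 at chr2:32384637-32387739 (minus strand) encodes lipocalin 2, which binds bacterial iron carriers. Ltf at chr9:111019292-111042766 (plus strand) encodes lactoferrin, an iron-binding milk protein. Plet1 at chr9:50494525-50505639 (plus strand) encodes a surface protein of epithelial progenitors. Positions are those of RefSeq on GRCm38.p6, which is mm10, the build of the files. The windows counted add 2000 bases on either side, and those of Aldh1a3, Rspo1 and Plet1 also touch another annotated gene each (Gm33515, Gm12930 and the opposite-strand RNA Plet1os), whose reads cannot be separated.

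The adult mammary gland has an outer basal layer of contractile cells and an inner luminal layer, which holds hormone-sensing mature cells and luminal progenitors able to form milk-producing alveoli. Luminal progenitors are commonly recognised by the receptor Kit and the retinaldehyde dehydrogenase Aldh1a3. They also make antimicrobial and pattern-recognition proteins, which milk later carries. At the end of gestation the rudiment is a small branched tree whose cells are only partly divided into these lineages.

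The promoter sequences of 5 of the 7 genes were in the RefSeq table. The 4 below are shown because their promoter regions spanned the range of fetal openness, from the highest of the 7 (Lcn2, Plet1, Kit) to nearly closed (Ltf). Each runs 5′ to 3′ on the gene's strand from 250 bases before to 50 bases after the start. Capitals mark matches, on either strand, to 6 short motifs named after the sequences.
Kit, chr5:75574737-75575036, plus strand: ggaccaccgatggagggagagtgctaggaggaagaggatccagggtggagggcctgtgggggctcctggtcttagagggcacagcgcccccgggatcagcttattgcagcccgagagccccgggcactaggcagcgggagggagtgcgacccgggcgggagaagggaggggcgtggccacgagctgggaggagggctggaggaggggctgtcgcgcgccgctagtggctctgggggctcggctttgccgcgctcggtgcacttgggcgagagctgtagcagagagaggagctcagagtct
Lcn2, chr2:32387690-32387989, minus strand: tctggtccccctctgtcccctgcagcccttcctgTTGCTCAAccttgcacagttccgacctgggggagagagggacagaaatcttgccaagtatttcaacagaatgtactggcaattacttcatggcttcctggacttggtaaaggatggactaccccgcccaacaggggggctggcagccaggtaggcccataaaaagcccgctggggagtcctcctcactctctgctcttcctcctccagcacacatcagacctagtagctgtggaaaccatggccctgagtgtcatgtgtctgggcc
Ltf, chr9:111019042-111019341, plus strand: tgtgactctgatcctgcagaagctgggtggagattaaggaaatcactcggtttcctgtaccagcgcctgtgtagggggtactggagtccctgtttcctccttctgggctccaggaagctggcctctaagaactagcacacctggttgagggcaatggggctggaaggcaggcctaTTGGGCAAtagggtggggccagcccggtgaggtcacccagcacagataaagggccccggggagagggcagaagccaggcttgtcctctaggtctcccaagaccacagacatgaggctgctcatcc
Plet1, chr9:50494275-50494574, plus strand: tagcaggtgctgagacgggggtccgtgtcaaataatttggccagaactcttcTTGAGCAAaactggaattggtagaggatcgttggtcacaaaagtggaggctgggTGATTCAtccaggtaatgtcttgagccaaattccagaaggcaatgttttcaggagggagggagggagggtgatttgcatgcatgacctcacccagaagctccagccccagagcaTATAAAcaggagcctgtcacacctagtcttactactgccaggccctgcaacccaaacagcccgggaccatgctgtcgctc
The C/EBP letters searched were TTGCNNAA, which 10.8% of all 32544 promoters of this length held, and the Lcn2 sequence matched them with its first base at -216 from the start, Ltf at -75 and Plet1 at -198. The AP-1 letters were TGANTCA, held by 7.79% of promoters and matched in Plet1 at -144. The TATA letters were TATAAA, held by 13.6% and matched in Plet1 at -30. The ETS letters, GGAAGT, held by 23.7% of promoters, were in none of the 5 sequences. The same was true of the STAT letters, TTCNNNGAA, which 8.33% of promoters held. A 10-letter NF-kappaB motif, present in 0.415% of promoters, was in none of the 5 either. Kit matched no motif, nor did Rspo1, which is not printed. These matches describe letters and were not tied to binding.

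The authors kept 7846 nuclei, 882 and 1695 in the fetal and 2465 and 2804 in the adult libraries, with 6028168 to 19304830 reads per library, and no barcode was shared between libraries. They placed the nuclei in 14 numbered classes, and all but class 6 held 93.0% to 100% of their nuclei from 1 stage. Reads were summed per class and library, and 30 such sums had at least 20 nuclei. The classes were built by the authors from accessibility of the same nuclei, so class differences are described with that limit, and their p-values measure only the spread between libraries. Adult classes 3 and 7 were luminal progenitor-like, with 6 of 7 markers raised (by 0.5 or more on the log2 scale) from a list that holds none of the 7 genes. Classes 2 and 11 were mature luminal-like, with 7 and 5 of 7 markers raised, and classes 1 and 8 were basal-like, with 9 of 9. In fetal classes 9 and 5 only 3 of the 7 progenitor markers were raised (Elf5, Csn3 and Wfdc18), as many as in fetal class 12, and of 5 general luminal markers 4 were raised in class 9 and 3 in class 5. Of 9 basal markers, 2 were raised in class 9 (Krt14 and Krt17) and 1 in class 5 (Krt14). Fetal class 4 raised 6 of 9 basal markers and 2 of 7 progenitor markers. Classes 9, 5 and 4 held 1037, 538 and 470 fetal nuclei, and class 5 held no adult nucleus.

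Levels below are CPM (counts-per-million), reads over a gene window scaled to the TMM-adjusted total over all gene windows, given for library 1 and then library 2. The deposited lists appear to hold both reads of a fragment, since 92.7% of the low counts, from 1 to 4 reads, were even. An alternative halved each count, rounding up. It called more genes over all in every comparison of gene windows, so a pass made only with reads halved says little about a single gene.

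**Figure D1:**
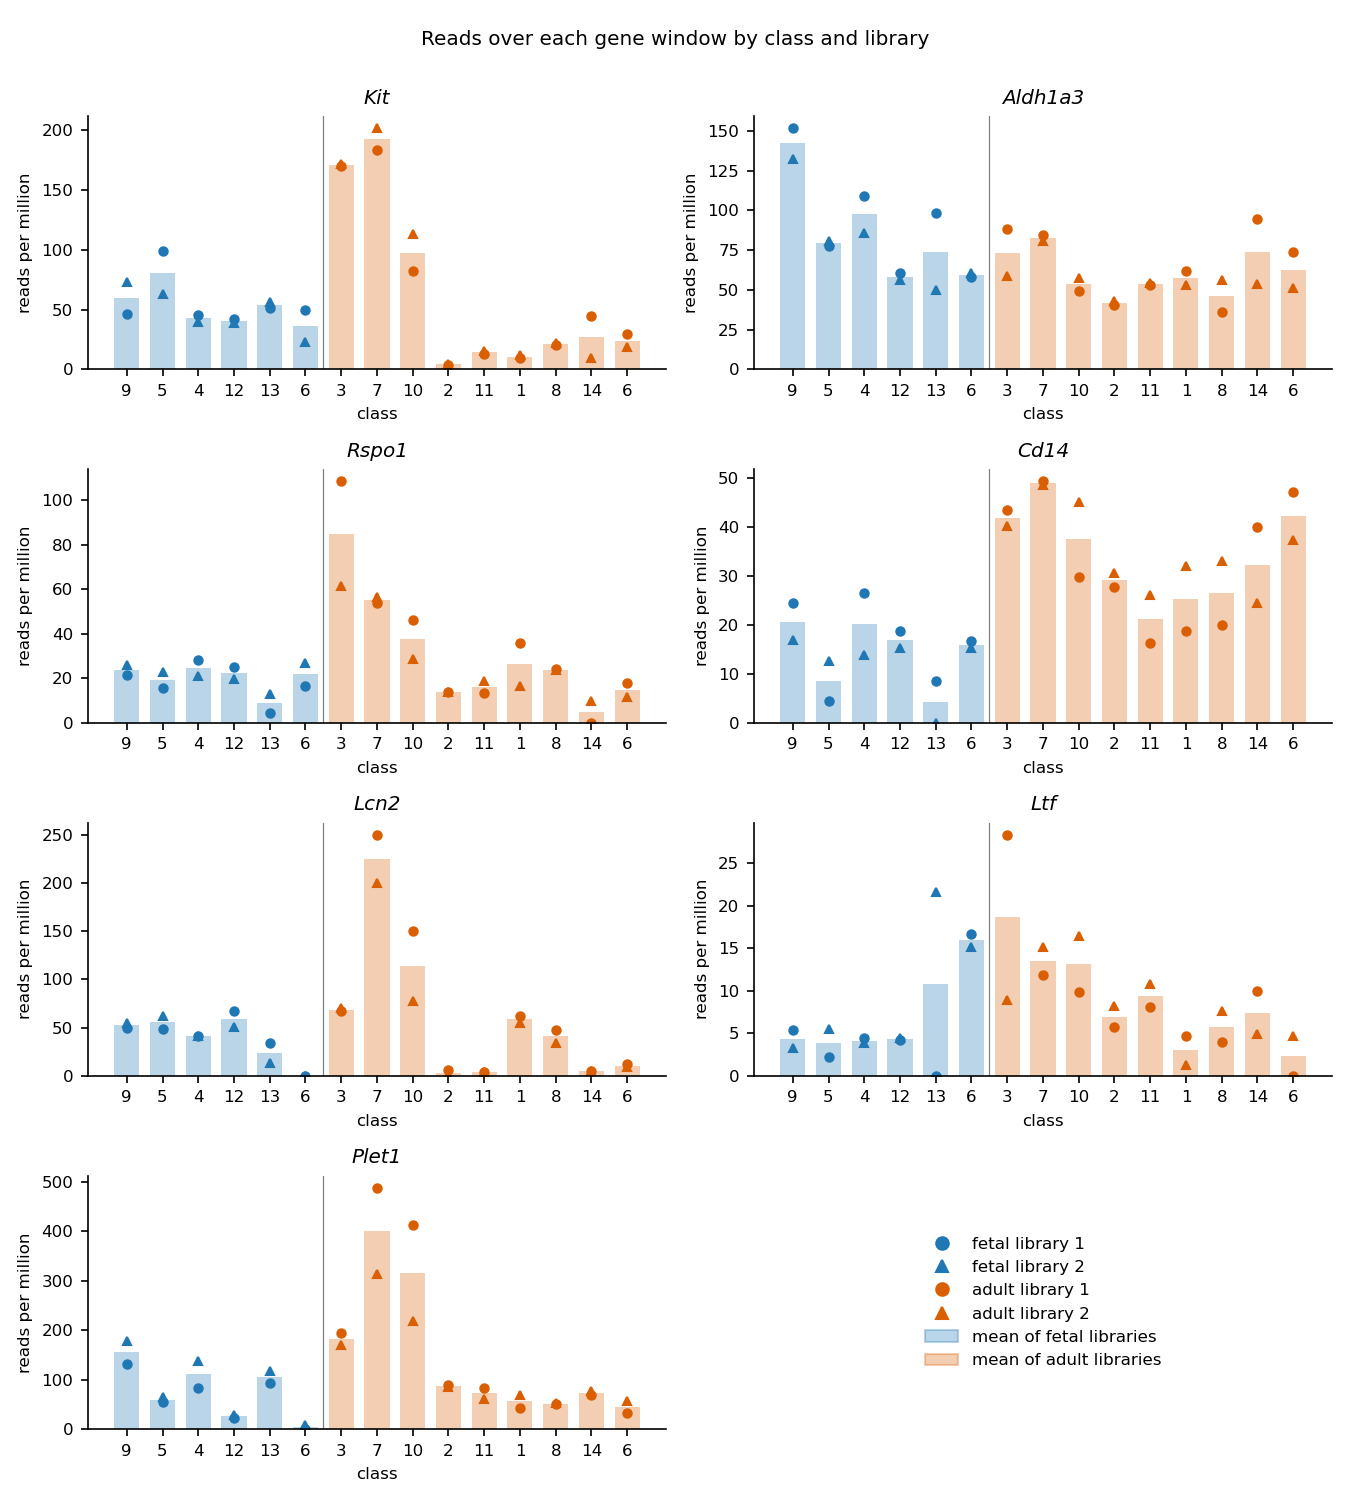
CPM (vertical axes, from 0) over the window of each gene in each class (horizontal axes), fetal sums to the left of the grey line and adult sums to the right. Circles and triangles are libraries 1 and 2 of a stage and bars their mean; Kit, Plet1 and Lcn2 peak in adult class 7, whereas Aldh1a3 peaks in fetal class 9.

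Kit was open in fetal classes 9 and 5 but below the adult progenitor level. Its level was 46.4 and 73.1 CPM in class 9, 98.8 and 62.8 CPM in class 5 and 45.6 and 40.0 CPM in class 4. In adult progenitor-like nuclei it was 170.1 and 172 CPM in class 3 and 183 and 202 CPM in class 7. All 4 adult progenitor values thus lay above all fetal ones, and the fetal classes 9 and 5 overlapped each other. Fetal class 13, at 51.3 and 56.3 CPM, lay within the class 9 range, and class 12 had 41.7 and 38.5 CPM. By reads per kb of window, 25.2% of tested genes ranked no higher than Kit in class 9 and 36.2% in class 5. In classes 3 and 7 these shares were 66.1% and 67.9%. In mature luminal-like class 2 Kit stood at 3.99 and 4.25 CPM and in basal-like class 1 at 9.30 and 11.97 CPM, so even fetal class 4, where basal markers were raised, stood above the adult basal classes.

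Rspo1 was weakly open throughout the fetal gland. Class 9 gave 21.2 and 25.7 CPM, class 5 gave 15.5 and 22.6 CPM, and class 4 gave 28.0 and 20.9 CPM. These 3 fetal classes overlapped. Basal-like class 8, with 24.0 and 23.6 CPM, overlapped classes 9 and 4 and lay just above class 5. In adult class 3 the level was 108 and 61.5 CPM and in class 7 it was 53.8 and 56.3 CPM, all above every fetal value.

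Aldh1a3, which makes retinoic acid, had its highest window level of all classes in fetal class 9. It stood at 152 and 133 CPM there, at 77.7 and 80.9 CPM in class 5 and at 109 and 86.1 CPM in class 4. Adult class 7, at 84.6 and 80.8 CPM, and class 3, at 88.4 and 58.7 CPM, lay below both class 9 libraries and overlapped class 5. The lowest adult levels among the luminal and basal classes were 40.7 and 43.1 CPM in class 2 and 36.0 and 56.5 CPM in class 8, so the range over classes was narrower than for Kit.

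Plet1 lay higher in class 9 than in class 5. Class 9 had 132 and 179 CPM, class 5 had 54.4 and 64.7 CPM, and class 4 had 83.9 and 137 CPM. Fetal class 12 was lower still, at 23.0 and 28.4 CPM. In adults Plet1 reached 488 and 314 CPM in class 7 and 193 and 169 CPM in class 3, and class 3 overlapped fetal class 9. The 2 libraries of class 7 themselves differed by more than the 2 libraries of class 9.

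Of the defence genes, Lcn2 had overlapping levels in fetal classes 9 and 5. It had 50.03 and 55.2 CPM in class 9, 48.8 and 62.4 CPM in class 5 and 41.2 and 41.4 CPM in class 4. Fetal class 12, at 66.8 and 50.4 CPM, and adult basal-like class 1, at 62.0 and 55.2 CPM, lay in the same range. Adult class 7 stood apart at 250.03 and 200.2 CPM, whereas class 3 had 66.7 and 70.4 CPM. The mature luminal-like classes were low, with 5.69 and 0.532 CPM in class 2 and 4.06 and 4.03 CPM in class 11.

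Cd14 was lower in fetal classes 9 and 5 than in adult classes 3, 7 and 2. Class 9 gave 24.3 and 16.9 CPM and class 5 gave 4.44 and 12.5 CPM, the latter from 4 and 27 reads. Adult class 3 gave 43.4 and 40.2 CPM and class 7 gave 49.3 and 48.5 CPM, with no overlap with class 9 or class 5. Mature luminal-like class 2, at 27.6 and 30.6 CPM, also lay above both fetal classes, whereas class 11, at 16.3 and 26.0 CPM, overlapped class 9.

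Ltf was nearly closed in fetal classes 9 and 5. Its window held 12 and 16 reads in class 9 and 2 and 12 reads in class 5, or 5.41 and 3.21 CPM and 2.22 and 5.54 CPM. Adult class 3 gave 28.4 and 8.94 CPM and class 7 gave 11.9 and 15.2 CPM, and even this maximum is a low level for a window of this length. Fetal class 6 gave 16.7 and 15.2 CPM, from 2 and 4 reads, and fetal class 13 gave 0 and 21.6 CPM, from 0 and 10 reads, and neither entered a comparison. Differences of Ltf among fetal classes 9, 5 and 4 were not detectable at this depth.

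Window lengths run from 5.75 kb for Cd14 to 85.7 kb for Kit, so the genes were set against each other at their promoter regions, which the authors deposited at an equal width of 1000 bases. Values here are CPM over all promoter regions. In class 9 the order was Lcn2 (119.5 ± 2.69, SD, n = 2), Plet1 (109 ± 8.05), Kit (77.8 ± 35.5), Aldh1a3 (71.8 ± 6.61), Cd14 (50.7 ± 18.7), Rspo1 (18.9 ± 8.63) and Ltf (1.47 ± 2.08). The libraries of Kit, at 52.7 and 103, spanned those of Aldh1a3 and overlapped Cd14, at 63.9 and 37.5, and Plet1 came just above Kit, at 115 and 104. In class 5 the order was Kit, Lcn2, Aldh1a3, Plet1, Cd14, Rspo1 and Ltf, and the first 2 overlapped at 148 and 89.8 for Kit and 94.6 and 142 for Lcn2. The Lcn2 region stood above 86.3% of the 19204 promoter regions in class 9 and the Kit region above 85.6% in class 5. The Ltf region held no read in class 5 and 4 reads in class 9. The regions of Aldh1a3 and Cd14 hold no annotated start in the table used; each is the deposited promoter region nearest an end of the gene, 14 and 188 bases away, and was chosen after the regions were seen.

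Against fetal class 4, the class with raised basal markers, none of the 7 genes passed an adjusted p of 0.05 in class 9 (edgeR quasi-likelihood test, Benjamini-Hochberg over 16033 genes; 1 at an unadjusted p under 0.05), where 0.923% of all genes did. All 7 log2 differences were positive, with a median of 0.35 against 0.00133 over all genes, but the sign of 3 of them turned under other settings: Rspo1 was at -0.39 and Cd14 at -0.11 without fetal library 2, and Ltf at -0.26 without fetal library 1. The largest was Aldh1a3, at 0.57 (SE 0.251, adjusted p = 0.359 in edgeR), with both class 9 libraries above both of class 4. DESeq2 also called none. With reads halved Aldh1a3 passed at 0.60 (edgeR adjusted p = 0.0464), in a fit that called 837 of 16077 genes in place of 148. Against the same class 4, class 5 gave none of 7 calls, where 2.51% of all genes were called (2 of the 7 at an unadjusted p under 0.05). Plet1 came nearest, with a log2 difference of -0.93 (SE 0.275, edgeR adjusted p = 0.0535), and with the library as a block its edgeR adjusted p was 0.0136. Its call was also made without either adult library, which enter through the shared spread (0.0287 and 0.0241, edgeR adjusted p). Kit was 0.90 higher (SE 0.307, edgeR adjusted p = 0.108) with no overlap between the libraries, and total read scaling took it past the threshold, at 1.11 (edgeR adjusted p = 0.0436). With reads halved both passed, Plet1 at -0.98 (edgeR adjusted p = 0.00934) and Kit at 0.83 (0.0474), where 1069 genes were called in place of 402.

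Between fetal classes 5 and 9, Plet1 was lower in class 5 than in class 9. The log2 difference was -1.37 (SE 0.263, edgeR adjusted p = 0.0264), and both class 5 libraries lay below both class 9 libraries. It was 1 of 4 genes called in this comparison, 0.0249% of all genes. The call was not made without fetal library 1 or 2, when each fetal class rests on a single sum. The difference was then -1.47 or -1.28. Over the gene span without its flank it was -1.34 (edgeR adjusted p = 0.119), in a fit that called 0 of 15278 genes. Aldh1a3 was also lower in class 5 without overlap, by a log2 difference of -0.84 (SE 0.2503), as was Cd14 by -1.08 (SE 0.466), but neither was called. With reads halved Aldh1a3 was (-0.84, edgeR adjusted p = 0.0264), in a fit that called 46 genes in place of 4. The edgeR interval at 95% of the Lcn2 difference ran from -0.52 to 0.71 on the log2 scale.

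**Figure D2:**
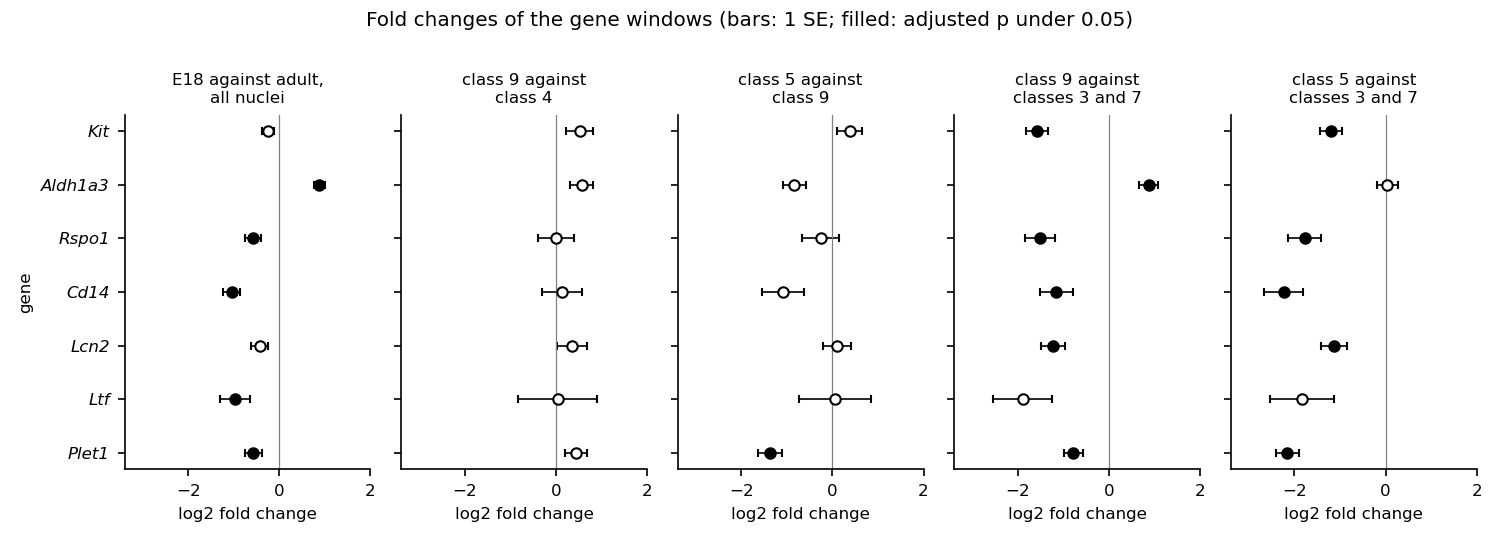
Log2 fold change (horizontal axes) of each gene window (vertical axis) in 5 comparisons, positive where the first-named group is higher, with bars of 1 SE and filled points where the edgeR adjusted p is under 0.05. Class 9 is called lower than adult classes 3 and 7 for 5 of the 7 genes and higher for Aldh1a3. Ltf met the filter on low reads only through the adult sums, so its points against classes 3 and 7 are not read.

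Set against the adult progenitor-like classes 3 and 7, which contribute 4 sums from 2 libraries, most of the genes were less open in the fetal nuclei. In class 9, 6 of 7 genes were called, where 6.23% of all genes were, with 5 lower (2.68% of all genes) and 1 higher (3.56%). Kit was lower by a log2 difference of -1.58 (SE 0.239, edgeR adjusted p = 9.17e-06), Rspo1 by -1.52 (SE 0.332), Lcn2 by -1.23 (SE 0.269), Cd14 by -1.15 (SE 0.352) and Plet1 by -0.79 (SE 0.211). For Lcn2 and Plet1 the adult classes were uneven: class 7 stood far above class 9, whereas Lcn2 in class 3, at 66.7 and 70.4 CPM, lay nearer the 50.03 and 55.2 CPM of class 9, and class 3 alone was not tested. Aldh1a3 was higher by 0.87 (SE 0.205, edgeR adjusted p = 0.00423). Ltf, at -1.90 (SE 0.639), missed the threshold (edgeR adjusted p = 0.064). It passed in DESeq2 (adjusted p = 0.0339) and with reads halved (edgeR adjusted p = 0.00268). However, Ltf met the filter on low reads in the class sums only through the adult sums. That favours a lower fetal level, so its tests against classes 3 and 7 are not read. Class and stage coincide here, so they cannot be told apart. Markers of other classes moved in the same comparison: 3 of 9 basal markers were called higher and 1 lower in class 9 (median log2 difference 0.39, against 0.03 over all genes), and 1 of 5 general luminal markers lower (median -0.55). The part of these markers in the result was not tested.

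The call for Kit and its direction held whichever library was left out. The number of calls fell to 1 without fetal library 1 and to 2 without fetal library 2, when class 9 rests on a single sum assumed to vary like the other classes. Without fetal library 1 or 2, Rspo1 stood at -1.40 and -1.69 (edgeR adjusted p = 0.0875 and 0.0522) and Lcn2 at -1.17 and -1.32 (0.0936 and 0.0699), differences about as large that were no longer called. Aldh1a3 was lost without fetal library 1 (log2 0.77, edgeR adjusted p = 0.135) and adult library 2 (0.70, 0.0858). Cd14 lost its call with the library as a block (log2 -0.88, edgeR adjusted p = 0.22), over the gene span alone (-1.08, 0.056) and without each library in turn, with adjusted p between 0.0736 and 0.341. Plet1 overlapped between class 9 and class 3 and lost its call without adult library 1 (log2 -0.56, edgeR adjusted p = 0.164), fetal library 1 (-0.59, 0.373) and fetal library 2 (-1.04, 0.0632).

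Class 5 differed from classes 3 and 7 in 5 of 7 genes, where 9.14% of all genes were called, and all 5 were lower (4.5% of all genes). Cd14 was lower by a log2 difference of -2.24 (SE 0.424), Plet1 by -2.16 (SE 0.246, edgeR adjusted p = 2.32e-08), Rspo1 by -1.78 (SE 0.365), Kit by -1.20 (SE 0.247) and Lcn2 by -1.14 (SE 0.283). Aldh1a3 did not differ detectably, at 0.04 (SE 0.227), with a 95% interval from -0.41 to 0.48. Ltf stood at -1.83 (SE 0.704, edgeR adjusted p = 0.0951), and passed with reads halved (0.0337). This test is not read either, since Ltf met the filter only through the adult sums. Both fetal comparisons share the same adult sums, so their similarity is not independent. In class 5, 2 of 5 general luminal markers were lower (median log2 difference -0.84), 1 of 9 basal markers higher (median 0.39) and 2 of the 4 tested immune markers lower (median -0.56), against a median of 0.04 over all genes, and their part in the calls was not tested. Without fetal library 2, Kit (log2 -0.89, edgeR adjusted p = 0.121) and Lcn2 (-1.36, 0.071) lost their calls here, and without fetal library 1 Lcn2 did (-1.004, 0.155), as over the gene span alone (-1.24, 0.0753).

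Within the adult gland 6 of the 7 genes were called higher in the progenitor-like classes in each comparison, a direction for which most of them are known markers. Classes 3 and 7 exceeded mature luminal-like classes 2 and 11 for 6 genes, where 19.2% of all genes were called and 9.46% called higher, by log2 differences from 0.71 for Aldh1a3 to 5.11 for Lcn2 (SE 0.301). They exceeded basal-like classes 1 and 8 for 6 genes, where 19.7% of all genes were called and 8.39% called higher, by 0.56 for Aldh1a3 to 3.56 for Kit (SE 0.2502). The latter 6 include Ltf (log2 1.96, SE 0.613), which met the filter on low reads only with the reads of classes 3 and 7. That favours a higher level in those classes, so this call of Ltf is not read. Ltf was not called against the mature luminal-like classes (log2 0.92, edgeR adjusted p = 0.197) nor Cd14 against the basal-like classes (0.73, 0.0828; 0.0306 with total read scaling and 0.0377 with reads halved). Without adult library 1, Aldh1a3 stood at 0.51 (edgeR adjusted p = 0.244) against the mature luminal-like and 0.35 (0.503) against the basal-like classes, and without adult library 2 at 0.89 (0.0594) against the latter. Against the mature luminal-like classes Cd14 stood at 0.64 (edgeR adjusted p = 0.424) without adult library 1, at 1.13 (0.143) without adult library 2 and at 0.75 (0.0593) over the gene span alone.

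The difference between the classes richer in luminal and in basal markers was smaller in the fetus for 2 of these genes. The difference of class 9 over class 4 was set against that of classes 3 and 7 over classes 1 and 8 in 1 contrast, which was added after the single comparisons had been seen. Kit had a fetal-minus-adult value of -3.03 on the log2 scale (SE 0.399, edgeR adjusted p = 3.4e-06) and Plet1 of -1.84 (SE 0.322, edgeR adjusted p = 0.000282), and 1.73% of all genes were called. Without fetal library 2, which leaves a single sum per fetal class, Plet1 stood at -1.63 and was no longer called. Rspo1 (-1.50, SE 0.508) and Lcn2 (-1.03, SE 0.411) were not called, Rspo1 passing with reads halved (edgeR adjusted p = 0.043), and Aldh1a3 was at 0.01 (SE 0.336). In the same contrast 6 of 9 basal markers were called higher and none lower (median 1.66). The medians were -1.15 for the 7 progenitor markers and -0.86 for the 5 general luminal markers, against 0.00705 over all genes. The part of these markers in the 2 calls was not tested.

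Over all nuclei, without regard to class, 5 of the 7 genes differed between E18 and adult, where 22.2% of all genes did. Aldh1a3 was higher in the fetus (11.3% of all genes were), at 116 and 98.0 CPM against 60.8 and 55.1 CPM in the adult libraries (log2 0.88, SE 0.125, edgeR adjusted p = 0.000347). Cd14 was lower, at 19.1 and 14.4 CPM against 33.3 and 34.3 CPM (log2 -1.05, SE 0.179, edgeR adjusted p = 0.00112). For both genes the stages did not overlap.

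Lower calls, made for 10.9% of all genes, also came for Rspo1, Ltf and Plet1, at edgeR adjusted p of 0.0318, 0.0443 and 0.0468. Plet1 rested on adult library 1: the fetal values were 94.3 and 123.1 CPM and the adult ones 204.1 and 122.5 CPM, so the stages overlapped. Without adult library 1 its log2 difference was -0.16 (edgeR adjusted p = 0.434), and without fetal library 1 or 2 its edgeR adjusted p was 0.243 or 0.0544. Rspo1 also lost its call without fetal library 1, fetal library 2 or adult library 1, at log2 -0.52, -0.68 and -0.37 against -0.58 with all libraries. So did Ltf, at -0.93, -1.05 and -0.89 against -0.98. Neither they nor Plet1 was called by DESeq2 or over the gene span alone (edgeR adjusted p = 0.072 for Rspo1, 0.0884 for Ltf and 0.0566 for Plet1). Ltf was not called by read midpoint either (-0.97, edgeR adjusted p = 0.0518). Kit, at 56.1 and 57.9 against 73.3 and 62.6 CPM, was not called (log2 -0.25, edgeR adjusted p = 0.183). Lcn2 had 48.96 ± 1.47 CPM (SD, n = 2) in the fetus and 82.9 and 50.49 CPM in the adult libraries. It was not called either (-0.44, edgeR adjusted p = 0.116), though it passed over the gene span alone (-0.84, 0.0216). Without adult library 2, Kit stood at -0.38 and Lcn2 at -0.78. The adult group is then a single library, so the spread between the adult libraries does not enter, and passing there is not read.

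The makeup of the libraries moves with these stage values. Classes 5 and 9 made up 66.4% and 58.3% of fetal nuclei, whereas classes 3 and 7 made up 37.4% and 28.7% of adult nuclei and the mature luminal-like classes, where Kit and Lcn2 were low, 40.6% and 38.3%. Adult library 1, with the higher Plet1 and Lcn2, was also the one with more class 3 and 7 nuclei. The part of this makeup in the stage values was not tested.

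The share of a window's reads that lay at the promoter region was also compared between class groups, as a description. At Kit a larger share lay there in fetal classes 9 and 5 than in adult classes 3 and 7. The promoter region took 32.0% and 38.5% of the reads of the Kit window in class 9 and 43.8% and 40.4% in class 5. In classes 3 and 7 together it took 20.0% and 20.6%, with Wilson 95% intervals from 17.1% to 23.2% and from 17.8% to 23.7%, which cover counting error only. These adult intervals lay below the intervals of both classes 9 (23.8% to 41.6% and 33.6% to 43.6%) and 5 (34.0% to 54.2% and 32.6% to 48.8%), although intervals that count fragments would be wider. For Plet1 the share was 24.6% and 15.8% in class 9, 28.6% and 21.4% in class 5 and 9.50% and 15.3% in classes 3 and 7, where the second libraries of class 9 and of classes 3 and 7 had overlapping intervals. A high share was not particular to classes 9 and 5: at Kit it was 29.0% and 41.7% in class 4, and 12.5% and 40.9% in basal-like classes 1 and 8, from 16 and 44 reads. At Aldh1a3 class 9 lay below classes 3 and 7, with 12.5% and 15.7% in class 9 and 24.4% and 19.3% in classes 3 and 7, while class 5, at 11.4% and 32.6%, spanned them, and classes 2 and 11 had 8.72% and 12.7%. There the intervals of the second libraries of class 9 (13.2% to 18.7%) and of classes 3 and 7 (15.0% to 24.4%) overlapped. At Lcn2 class 9 had 68.5% and 58.2%, classes 3 and 7 had 36.4% and 43.2%, and classes 1 and 8 had 75.0% and 74.0%.

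**Figure D3:**
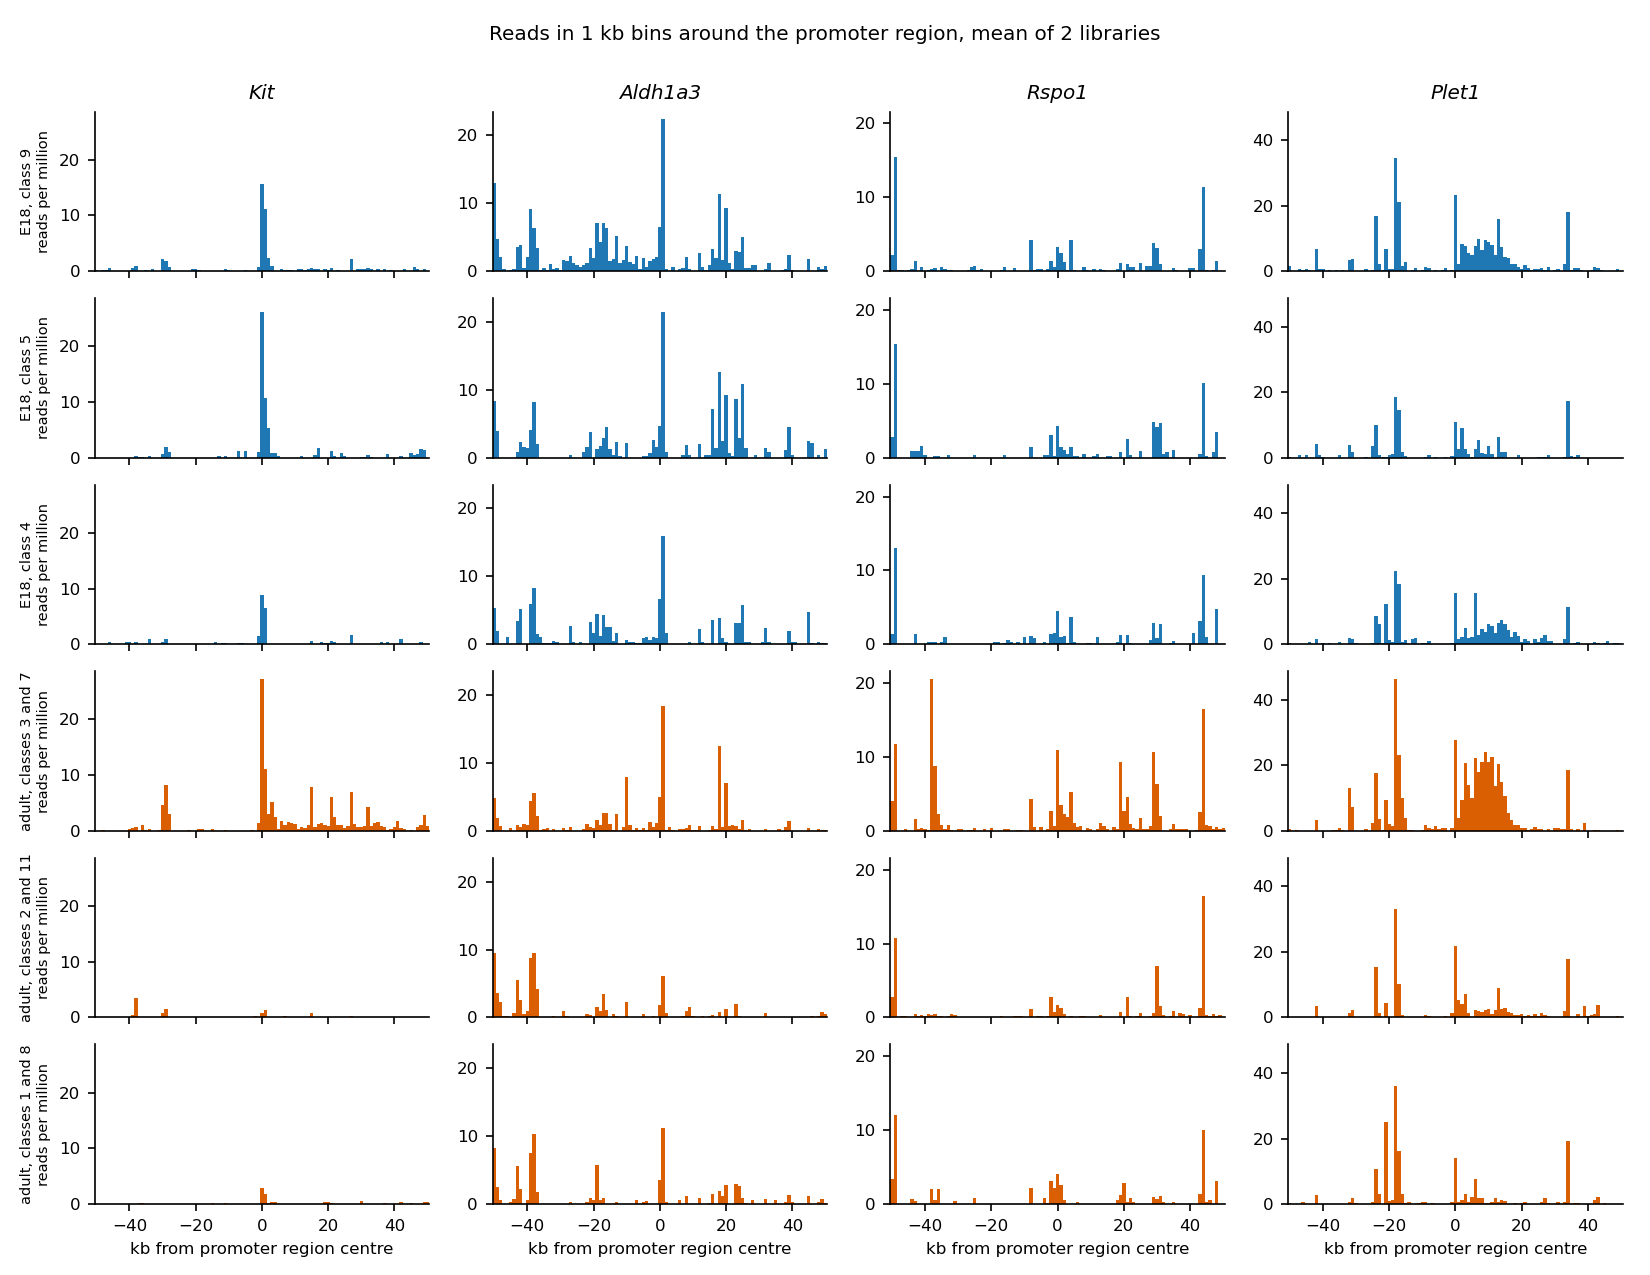
Reads in bins of 1 kb, as CPM of all reads of the nuclei (vertical axes), as the mean of 2 libraries, against distance from the centre of the promoter region in the direction of increasing coordinate (horizontal axes), for 4 genes and 6 class groups. Peaks to the right of the Kit promoter and the peak near -38 kb of Rspo1 stand out in adult classes 3 and 7, whereas the Kit promoter itself is also open in classes 9 and 5.

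Over all nuclei the Kit promoter region (chr5:75574377-75575376) was higher in the fetus, at 64.4 and 78.0 CPM against 46.6 and 42.6 CPM in adults (log2 0.70, SE 0.185, edgeR adjusted p = 0.00349), although without fetal library 2 it was not called (0.54, 0.144). By class the order differed: the mean of this promoter region was 77.8 CPM in class 9 and 119 CPM in class 5. It was 166 CPM in class 3 and 105 CPM in class 7, but 2.87 and 6.89 CPM in classes 2 and 11. Class 9 lay below classes 3 and 7 without overlap and was not called (log2 -0.73, SE 0.390, edgeR adjusted p = 0.590). Of 13 tested distal regions within 50 kb of Kit, 7 were lower and none higher, where 18.8% of all tested distal regions were lower and 16.6% higher. A region picked after its values were seen, chr5:75589113-75590112, inside the gene 14.7 kb from the promoter, had mean levels of 49.97 and 40.5 CPM in classes 3 and 7 and of 4.25 and 0 CPM in classes 9 and 5. The largest stage difference was at chr5:75690998-75691997, beyond the far end of the gene, with 0 and 1 reads in the fetal and 31 and 34 reads in the adult libraries. Regions named for the largest stage difference were chosen by that difference, so their reads are a description, with no test. This one passed the filter on low reads only through the adult libraries, so its lower level was favoured, and it is among the 7 counted as lower. The share over all distal regions was taken under the same filter. Other regions of this kind were not taken out of the count. In that region classes 3 and 7 had 10.8 and 28.7 CPM on average. Values of distal regions are CPM over all distal regions.

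At Aldh1a3 more regions were higher than lower. Of 26 tested distal regions within 50 kb, 14 were higher and 2 lower in fetal nuclei, against 16.6% and 18.8% of all tested distal regions. The promoter region (chr7:66426464-66427463) was also higher by stage, by a log2 difference of 0.85 (SE 0.201, edgeR adjusted p = 0.00109). It had no peak in class 9, with means of 71.8 CPM there and 84.1 CPM in class 4, which overlapped (log2 -0.14, SE 0.545). Class 9 overlapped classes 3 and 7 as well and was not called (0.26, SE 0.447, edgeR adjusted p = 0.931). The largest distal difference was at chr7:66451585-66452584, 25.1 kb from the promoter and outside the gene, with 37 and 104 fetal reads against 11 and 15 adult reads. By class its level was 35.4 and 25.5 CPM in class 9 and 83.6 and 66.4 CPM in class 5, with no overlap. The order was the other way at a region inside the gene: chr7:66407253-66408252 had a mean of 40.2 CPM in class 9 and 7.86 CPM in class 5. The latter region was picked after its values were seen, and neither had enough reads for a test between classes.

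**Figure D4:**
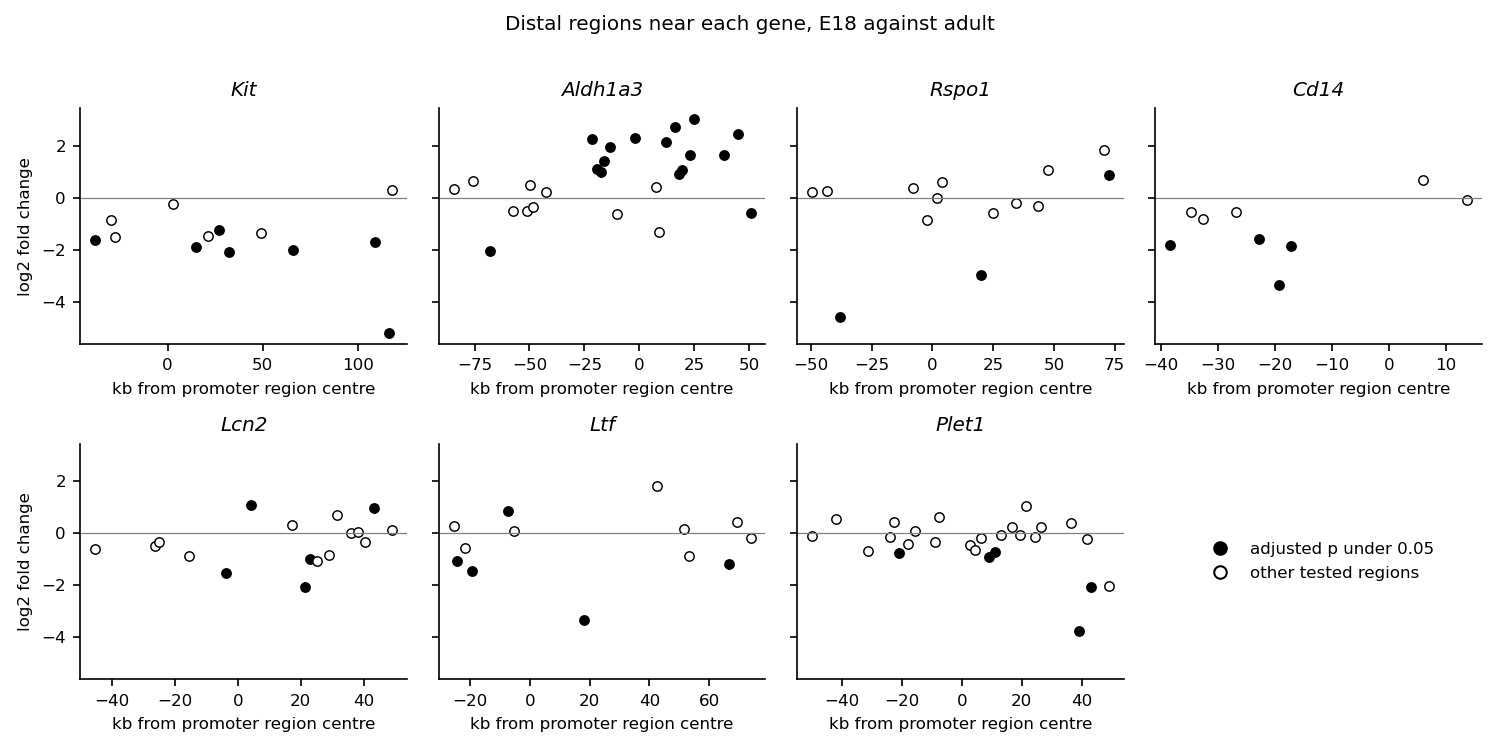
Log2 fold change between E18 and adult nuclei (vertical axes, positive where E18 is higher) of each tested distal region within 50 kb of a gene, against its distance in kb from the centre of the gene's promoter region (horizontal axes). Filled points have an edgeR adjusted p under 0.05; 14 of 26 regions are higher at Aldh1a3 and none of 13 at Kit.

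For Rspo1 the largest stage difference lay at a distal region upstream. At chr4:124948044-124949043, 38.0 kb before the promoter, the fetal libraries had 1 and 6 reads and the adult libraries 124 and 129, through which alone it passed the filter. By class the level was 90.2 and 77.7 CPM in class 3 and 138 and 155 CPM in class 7. Class 9 had 1.97 and 3.40 CPM, class 5 held no read, and mature luminal-like class 2 had 0 and 5.10 CPM. The Rspo1 promoter region itself was not called (log2 -0.33, SE 0.287, edgeR adjusted p = 0.454).

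At the other 5 genes the distal counts were small, and at Plet1, Lcn2 and Rspo1 they were near the 18.8% lower and 16.6% higher of all distal regions or below them. At Cd14, 4 of 9 tested regions were lower and none higher, at Plet1 5 of 26 lower and none higher, at Ltf 4 of 13 lower and 1 higher, at Lcn2 3 of 17 lower and 2 higher, and at Rspo1 2 of 14 lower and 1 higher. At each of these 5 genes the lower count holds the region with the largest stage difference. Those regions had fetal means of 0.242 to 1.24 CPM and passed the filter only through the adult libraries, which favours a lower fetal level. The shares over all distal regions were taken under the same filter. Around all 7 genes, 27 of 118 regions were lower and 18 higher, and the share called, 45 of 118, is near the 35.3% of all distal regions. The Ltf promoter region (chr9:111018613-111019612) held 0 and 6 fetal reads against 26 and 33 adult reads (log2 -2.74, edgeR adjusted p = 0.00758; -2.16 and 0.0514 without fetal library 1), and it passed the filter only through the adult libraries, so it had to differ and is left out of the count that follows. The distal region near Ltf with the highest level in classes 5 and 9, chr9:111011344-111012343, had 156 and 162.6 CPM in class 5 and 82.7 and 87.6 CPM in class 9. Classes 3 and 7 had 88.8 CPM on average. The choice favours a higher fetal level, so no comparison of this region is read. The Lcn2 promoter region (chr2:32387383-32388382) stood at 0.01 (SE 0.151). Of the other 6 promoter regions, 4 were called by stage, where 21.5% of all promoter regions were: Kit and Aldh1a3 higher, and Cd14 and Plet1 lower. Plet1 (log2 -0.43, SE 0.153, edgeR adjusted p = 0.0359) was not called with any 1 of the 4 libraries left out, though the difference stayed at -0.39 to -0.48. Nor was it called with total read scaling (-0.43, edgeR adjusted p = 0.112) or in DESeq2 (-0.43, adjusted p = 0.0827). Cd14 (-0.79, SE 0.199) was not called without fetal library 2 (-0.51) or adult library 2 (-0.57).

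In the class comparisons only 33 of the 127 distal regions near the genes had enough reads, and none of those near Kit. None of the 33 was called between class 9 and class 4 (2.11% of all regions tested; 4 of the 33 at an unadjusted p under 0.05 and 0 in DESeq2) or between class 5 and class 9 (1.32%; 7 unadjusted and 4 in DESeq2). Between class 9 and classes 3 and 7, 6 were called, 2 higher (6.1% of all regions) and 4 lower (6.01%), where 12.1% of all regions were. Both higher ones lay near Aldh1a3, at chr7:66376718-66377717 (log2 1.37) and chr7:66383878-66384877 (2.51). The level of the former was not particular to class 9, where its mean was 93.5 CPM. It was 127 CPM in fetal class 12, 91.0 CPM in adult class 10 and 85.2 and 76.3 CPM in mature luminal-like classes 11 and 2. Classes 3 and 7 had 45.1 and 29.1 CPM. The lower ones were chr18:36702816-36703815 (-2.64) and chr18:36708423-36709422 (-1.71) near Cd14, chr2:32383710-32384709 (-2.11) at the end of Lcn2 and chr9:110999112-111000111 (-2.13) near Ltf. With the library as a block 2 regions were called, 3 were without fetal library 1, and 2 without adult library 2.

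The authors' deposited Cicero table scores the co-accessibility of pairs of regions over all nuclei pooled, so it has no samples and no stage. With a score of at least 0.1, 325 pairs linked a gene window to a region outside it, 140 at Lcn2, 79 at Plet1, 66 at Kit, 18 at Aldh1a3, 11 at Cd14, 9 at Rspo1 and 2 at Ltf. The table holds 12719512 pairs, of which 333914 reach that score. The highest score of the authors' deposited table at each gene was 0.580 for Lcn2, 0.558 for Plet1, 0.505 for Kit, 0.293 for Aldh1a3, 0.288 for Rspo1, 0.234 for Cd14 and 0.164 for Ltf.

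Of 115 linked regions, distal and promoter regions together, 21 were higher and 31 lower in fetal nuclei, where 16.6% and 18.8% of all distal regions were and 21.5% of promoter regions were called in either direction. Of those linked to Aldh1a3, 11 of 15 were higher and 2 lower, and of those linked to Kit 5 of 18 were higher and 4 lower. At Lcn2 5 of 45 were higher and 7 lower. None was higher at the other 4 genes, where 7 of 11 were lower at Cd14, 6 of 20 at Plet1, 3 of 4 at Rspo1 and 2 of 2 at Ltf. The 3 at Rspo1 hold chr4:124948044-124949043, which passed the filter on low reads only through the adult libraries. Other linked regions of this kind were not taken out. The links were scored on these same nuclei with both stages pooled. A region linked to a gene window is thus favoured to share its stage direction. The counts by gene are therefore a description, and the shares over all regions are not a fair measure for them. The top partner of Aldh1a3, chr7:66580373-66581372, lay 154 kb away and had mean levels of 235 and 226 CPM in classes 9 and 5 and of 100.3 and 169 CPM in classes 3 and 7. The top partner of Kit, chr5:75469534-75470533, lay 105 kb before its promoter, and its stage difference was 0.07 on the log2 scale (edgeR adjusted p = 0.876). The Kit partner with the next score, chr5:75799455-75800454, 225 kb away and nearest to Kdr, was higher in the fetus by 1.29 (edgeR adjusted p = 3.56e-05); it was named after its values were seen. The Rspo1 promoter was linked, at a score of 0.249 in the authors' deposited table, to the region at chr4:124948044-124949043 that was nearly closed in the fetus.

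Other genes of these programmes, from lists drawn up with earlier results of these data known, gave a wider view. Of 14 further luminal progenitor genes, 7 are the markers by which classes 3 and 7 were named, so their direction there is no independent evidence. In all, 10 of the 14 were higher and 1 lower in classes 3 and 7 than in classes 2 and 11, where 9.46% of all genes were higher, and their median log2 difference was 1.38 against -0.01 over all genes. In class 9 against classes 3 and 7, 3 of the 14 were lower (2.68% of all genes) and none higher: Trf, which encodes transferrin (log2 -2.43, SE 0.298), Itga2, a collagen-binding integrin (-1.11, SE 0.208), and Mfge8, a milk fat globule protein (-0.79, SE 0.237). All 3 are among the 7 naming markers, which were high in classes 3 and 7 by that choice, and none of the other 7 genes was called, so the count supports nothing further. In class 5, where 9.14% of all genes were called and 4.5% called lower, the same 3 were lower. Csn3, which encodes kappa-casein, was higher (1.06, SE 0.339, edgeR adjusted p = 0.0368). Over all nuclei 5 of the 14 were higher at E18, among them Csn3 (1.69, SE 0.206), Wfdc18 (1.03, SE 0.202) and the transcription factor Sox10 (0.96, SE 0.121), and 3 were lower, where 11.3% and 10.9% of all genes were. Against class 4, where 0.923% of all genes were called, 1 of the 14, Ehf, an epithelial ETS factor, was higher in class 9 (1.52, SE 0.281, edgeR adjusted p = 0.00301), and it was also higher in class 5 (1.60, SE 0.287).

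Of 33 innate defence genes, 27 had enough reads in the class sums. Against classes 3 and 7, 7 were lower and none higher in class 9, and 9 were lower and none higher in class 5, among 6.23% and 9.14% of all genes called. In class 9 these included Muc1, a membrane mucin (log2 -1.70, SE 0.299), C3, the central complement protein (-1.48, SE 0.266), Nfkbia, an inhibitor of NF-kappaB (-1.25, SE 0.188), and the chemokine Cxcl1 (-1.05, SE 0.285). In class 5 the endotoxin receptor Tlr4, which works with Cd14, was lower by -1.78 (SE 0.291). Over the 27 genes tested the medians were -0.51 and -0.52, against 0.03 and 0.04 over all genes.

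Of 25 partners of R-spondin, Kit and retinoid signalling, 9 were higher and 3 lower at E18 than in adults, where 11.3% and 10.9% of all genes were, with a median log2 difference of 0.29 against 0.01 over all genes. Lgr5, a receptor for R-spondins, was higher at E18 by a log2 difference of 1.53 (SE 0.139), and higher in class 9 than in classes 3 and 7 by 1.65 (SE 0.185, edgeR adjusted p = 1.56e-08), where Rspo1 itself was lower. The retinoic acid-degrading enzymes Cyp26b1 (0.86, SE 0.131) and Cyp26a1 (0.84, SE 0.277) and the receptor Rarb (0.65, SE 0.107) were also higher at E18. Lgr5 was the single partner called in class 9 against classes 3 and 7, where 6.23% of all genes were called.

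Cells of the immune lineage also use Cd14, Lcn2 and Ltf, and mast cells and melanocytes use Kit. The summed level of 8 immune markers was 141 to 151 CPM in class 9, 68.8 to 116 CPM in class 5, 125 to 158 CPM in class 3 and 141 to 170.3 CPM in class 7. Of the 4 with enough reads, 1 was raised in class 9 (Itgam), 1 in class 7 (Cd68) and none in classes 3 and 5, and Ly6g had no read in class 5. The summed level of 5 mast cell and melanocyte markers was 278 to 286 CPM in class 9, 256 to 278 CPM in class 5, 253 to 279 CPM in class 3 and 207 to 225 CPM in class 7. The immune ranges overlapped between class 9 and classes 3 and 7, while class 5 lay below them, and 2 of the 4 tested were called lower in class 5 than in classes 3 and 7 (median log2 difference -0.56). The part of such cells in the levels of the 7 genes was not tested.

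The genes most like each gene over the 30 sums, by Pearson's r of log2(CPM + 2), were Csf3 for Plet1 (r = 0.90), Wnt5b for Lcn2 (0.85), Fam174a for Cd14 (0.83), Ogfrl1 for Rspo1 (0.79), Atp2b1 for Kit (0.78), Cyb5r3 for Ltf (0.71) and Crtc1 for Aldh1a3 (0.61). Among the 7 genes r was highest between Lcn2 and Plet1 (0.63) and between Kit and Lcn2 (0.63), while Aldh1a3 and Rspo1 were at 0.01. The sums share libraries and classes, so these values are descriptions.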

How the data were processed

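Nuclei of 2 fetal and 2 adult libraries were profiled by single-nucleus ATAC-seq. The submitters' processing notes name Bowtie2, MACS2, bedtools and the build mm10, with no role or order; adapter shifting and duplicate removal are not given in the sources used here. The deposited files hold the reads of each nucleus, the authors' classes, promoter and distal regions of 1000 bases, and Cicero co-accessibility scores, which the authors computed over pooled nuclei. A deposited gene score table was not used.

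Reads were counted from the deposited read lists over each gene span with 2000 bases on either side, and over the deposited regions, and the counts were summed by library, and by class and library for sums of at least 20 nuclei. Features with a mean of at least 10 reads were tested with edgeR 4.0.16 (quasi-likelihood, TMM, limma 3.58.1, R 4.3.3), with all groups in a fit sharing the spread and Benjamini-Hochberg adjustment over all features tested. DESeq2 1.42.0 was an alternative, as were no filter, a mean of 50 reads, read midpoints, total read scaling, no flank, a replicate block, each library left out and, added after the data were seen, reads halved and the contrast of luminal over basal differences. Tables came from pandas 2.3.3 and numpy 2.4.6, intervals from scipy 1.17.1 and plots from matplotlib 3.10.9, under Python 3.11.15. The SE is the log2 difference divided by the square root of F. On simulated counts of 18808 genes, edgeR recovered 73.0% of changes of 1 and 96.6% of changes of 2 (log2) between stages. For class 9 against class 4, on 16033 genes, it recovered 58.2% and 100%. The simulation gave all genes the same spread, with no other difference between groups and no paired reads. These rates are therefore not the power of the real comparisons.

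The genes and lists were chosen with earlier results of these data known. Regions named are each gene's promoter region, the distal region with the largest stage difference and that highest in classes 5 and 9; list genes named are up to 4 called per list and comparison. The class sums of 1 library share their source: their deviations from class means correlated at -0.00779 to 0.161 (median 0.0668, 51 pairs). Whether library 1 and library 2 are separate animals or pools is not given here, so p-values measure the spread between these libraries.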

Additional observations from a re-analysis of the deposited data

Results flagged for a closer look

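For 2 genes the difference between the classes richer in luminal and in basal markers was not the same in the fetus and the adult, by a test of the difference itself (edgeR). Kit was 0.53 higher on the log2 scale in class 9 than in class 4, and 3.56 higher in adult classes 3 and 7 than in classes 1 and 8, a fetal-minus-adult value of -3.03 (SE 0.399, edgeR adjusted p = 3.4e-06). Plet1 was 0.44 higher in the fetal and 2.29 higher in the adult comparison, a value of -1.84 (SE 0.322, edgeR adjusted p = 0.000282). Without fetal library 2, which leaves a single sum per fetal class, Plet1 stood at -1.63 and was not called. In this contrast 1.73% of all genes were called. Lineage markers moved too: 6 of 9 basal markers were called higher (median 1.66). The medians were -1.15 for 7 progenitor markers and -0.86 for 5 general luminal markers, against 0.00705 over all genes. Their part in the 2 calls was not tested. Class and stage cannot be told apart in these values.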

How the results depend on the processing

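Class sums rest on 2 libraries, and the fetal class sums on few reads, which limits what Ltf, Cd14 and single regions can show. Counts over all genes moved as well, so those below are not results about the 7 genes alone. By stage, DESeq2 called 3119 of 18808 genes in place of 4174, and the span without flank 3812 of 18045. Stage calls over all genes fell without either fetal library, but not without either adult library. Such a fit leaves 1 library in a stage, so its spread comes from the other stage alone. Both fetal comparisons with classes 3 and 7 called fewer genes over all with any 1 library left out. Of the 7 genes, the stage comparison called 3 without flank, 4 by read midpoint and 2 in DESeq2 in place of 5, and 2 to 7 with 1 library left out (2 without fetal library 1, fetal library 2 or adult library 1). Class 9 against class 4 called 1 with reads halved in place of 0, where 837 of 16077 genes were called in place of 148 of 16033. Over all genes, class 5 against class 4 called 1069 of 16077 with reads halved and 718 of 16033 with the replicate block, in place of 402. Without flank, class 5 against class 9 called 0 of 15278 genes over all, in place of 4. Class 5 against class 4 called 1 without filter, by read midpoint, with total read scaling and with the replicate block, 2 with reads halved, and 0 to 1 with 1 library left out, in place of 0. Class 5 against class 9 called 2 with reads halved, 0 without flank and 0 to 1 with 1 library left out, in place of 1. Class 9 against classes 3 and 7 called 1 to 4 with 1 library left out in place of 6. Class 5 against them called 3 to 5 with 1 library left out in place of 5, and 3 at a mean of 50 reads, under which only 4 of the 7 genes were tested and no tested gene lost its call. The 2 calls of the luminal over basal contrast became 1 to 2 with 1 library left out. In the adult comparisons 4 to 6 were called with 1 library left out in place of 6, and Cd14 lost its call against classes 2 and 11 without flank (0.75, edgeR adjusted p = 0.0593).

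Distal regions called by stage numbered 21 at a mean of 50 reads, 21 in DESeq2 and 28 to 43 with 1 library left out in place of 45. Fewer regions were tested at a mean of 50 reads. Over all distal regions, DESeq2 called 24873 of 122865 by stage in place of 43423. For class 5 against class 9, total read scaling called 468 and DESeq2 649 of 16980 in place of 224, and reads halved 671 of 17594. For class 9 against classes 3 and 7, reads halved called 4577 of 17594 and the replicate block 1129 of 16980, in place of 2055. Class 5 against class 9 called 3 with total read scaling, 4 with reads halved, 4 in DESeq2 and 0 to 2 with 1 library left out in place of 0. Class 9 against classes 3 and 7 called 1 without filter, 0 at a mean of 50 reads, 2 with the replicate block, 11 with reads halved and 2 to 4 with 1 library left out in place of 6. Links numbered 78 at a score of 0.25 in place of 325. Where a count moved otherwise, the cause was not tested.

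Values that changed sign were all uncalled; ranges are over the fits with 1 library left out. For class 5 against class 9, Kit ran from -0.23 to 1.08, Lcn2 from -0.039 to 0.17 and Ltf from -1.25 to 0.76. For class 5 against classes 3 and 7, Aldh1a3 was -0.053 without flank and ran from -0.14 to 0.19. In the luminal over basal contrast it was -0.070 by read midpoint and -0.27 without flank, and ran from -0.30 to 0.24. For class 9 against class 4, Rspo1 was -0.024 by read midpoint and -0.0083 in DESeq2 and ran from -0.39 to 0.28, Cd14 ran from -0.11 to 0.27, and Ltf was -0.13 with reads halved and ran from -0.26 to 0.30. For class 5 against class 4, Rspo1 ran from -0.83 to 0.085 and Ltf from -0.95 to 0.51. By stage, the Kit region chr5:75692536-75693535 ran from -0.078 to 0.49. The Lcn2 promoter region was -0.00097 with total read scaling and ran from -0.16 to 0.17. The Lcn2 region chr2:32423309-32424308 was -0.15 without filter, -0.036 with total read scaling, -0.057 with reads halved and -0.051 in DESeq2, and ran from -0.29 to 0.21.

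The replicate number of the stage comparison pairs no samples by the labels (r = 0.24, 1 pair). With it as a block Lcn2 was -0.37 (edgeR adjusted p = 0.0194), and 44 distal regions were called. That setting called 6421 of 18808 genes in place of 4174, so the pass of Lcn2 there says little about this gene.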
